A study of Mus musculus with 4 samples.

Results

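Memory-like CD8 T cells made up 1052 of the 32725 cells that passed the filters in droplet single-cell RNA sequencing of mouse draining lymph nodes. CD8 T cells were cells with at least 1 unique molecular identifier (UMI, 1 counted transcript molecule) of the CD3 genes Cd3d, Cd3e and Cd3g, at least 1 of Cd8a and Cd8b1, and none of Cd4 or of the B cell gene Cd79a. Of these 6802 cells, the memory-like cells were selected on 3 or more UMIs of Ccl5, Il2rb and Eomes together. Cells with a UMI of the NK cell gene Ncr1, or with 2 or more UMIs of Ifit1, Ifit3 and Rsad2, were left out. The libraries held 259 and 266 such cells in controls 1 and 2, and 243 and 284 in EV-treated replicates 1 and 2. CD8 T cells without a UMI of the 3 genes, and within the same limits on Ncr1, Ifit1, Ifit3 and Rsad2, were used for comparison. These 3566 cells are called naive-like.

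All 4 libraries came from wildtype C57BL/6 mice, 1 library for each of 2 control and 2 EV-treated biological replicates. EV-treated mice received 100 µg of extracellular vesicles from induced pluripotent stem cells (iPSC EVs) under the skin. Controls received PBS by the study's methods and no treatment by the sample labels. The draining nodes were taken on day 5 by the methods and the design text, whereas the labels give 24 h. Neither the age or sex of the mice nor the number of animals or nodes in a library is given in the sources used here. The replicate spread may therefore be partly technical. The libraries held 50749656 and 58100433 UMIs in the controls and 68116085 and 70418672 in the EV-treated replicates.

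Memory CD8 T cells are antigen-experienced or cytokine-driven cells that persist without ongoing stimulation. In mouse lymph nodes they are usually recognised by the interleukin-2 and interleukin-15 receptor beta chain (Il2rb), the transcription factor Eomes, CD44 and Ly6C. Naive CD8 T cells carry little of these, apart from a fraction with Ly6C, and depend on interleukin-7 and on contacts with self-peptides. Some memory-phenotype cells, often called virtual memory cells, arise without a foreign antigen, and RNA of these genes does not separate them from cells that have met one.

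Several libraries and transcripts stood apart before any comparison. The memory-like cells were deeper in EV-treated mice, with a median of 13071 and 11437 UMIs per cell against 9753 and 11013 in controls. The rRNA-like transcript Gm42418 stood at 7880 and 8983 CPM (a gene's UMIs relative to all UMIs of the summed cells, scaled to 1000000) in the memory-like cells of controls 1 and 2, at 5347 in EV-treated replicate 1 and at only 772 in EV-treated replicate 2. EV-treated replicate 2 was thus far from the other libraries in this transcript. Pairs of libraries shared between 12 and 26 cell barcodes, and among the memory-like cells 1 barcode was shared, between control 2 and EV-treated replicate 2.

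The genes used for the choice were unevenly distributed among the memory-like cells, and their values are given as a description. Il2rb (chr15:78479256-78495271 of GRCm38, minus strand) was seen in 83.4% and 81.6% of the cells in controls and in 88.1% and 80.6% in EV-treated mice. Ccl5 (chr11:83525778-83530518, minus strand), a chemokine stored by memory CD8 T cells, was seen in 76.1% and 70.7% of the control cells and in 57.2% and 58.8% of the EV-treated cells. Eomes (chr9:118478212-118486132, plus strand) was seen in 50.2% and 45.1% of the control cells and in 65.4% and 69.4% of the EV-treated cells. Both EV-treated libraries lay below both controls for Ccl5 and above both for Eomes, which is no evidence of a difference, since the cells were selected on these genes. All 3 were found together in 31.3%, 24.8%, 30.9% and 28.9% of the cells of controls 1 and 2 and EV-treated replicates 1 and 2. Ccl5 stood at 1352 and 1275 CPM in controls and at 1034 and 896 CPM in EV-treated cells. Eomes stood at 109 and 89.5 CPM against 143 and 166 CPM. A level in CPM is a share of the cells' UMIs, so the 2 genes also carry the effect of having been selected on.

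The label was checked on Ly6c2 and Cd44, which the choice did not use. Ly6c2 (chr15:75108158-75111970, minus strand), which encodes a Ly6C protein, stood at 933, 873, 851 and 834 CPM in the memory-like cells of controls 1 and 2 and EV-treated replicates 1 and 2. In naive-like cells it stood at 159, 138, 144 and 119 CPM. The lowest memory-like library was thus far above the highest naive-like library. A UMI of Ly6c2 was seen in 85.5% of memory-like and 26.2% of naive-like cells, and in 1.49% to 2.14% of B cells, which were shallower (a median of 4123 to 5795 UMIs). Cd8b1, one of the genes of the choice, was seen in 95.1% to 96.1% of the memory-like cells, which is given as a description. CD44, the adhesion receptor that defines memory phenotype, had a UMI in 49.5% of memory-like and 6.65% of naive-like cells, and the share in memory-like cells lay between 48.6% and 50.2% in the 4 libraries. Naive-like cells were shallower, with a median of 6670 to 8619 UMIs. With these cells thinned to 2000 UMIs, Cd44 was seen in 14.4% to 16.5% of memory-like and 1.35% to 2.27% of naive-like cells. Ly6c2 was then seen in 64.7% to 70.7% against 13.3% to 17.1%.

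The genes with the largest fold difference between memory-like and naive-like cells included further memory genes. These folds use mean CPM with 5 CPM added to both sides, for genes with a UMI in at least 25% of memory-like cells. They are a description, since the cells were separated by 3 correlated genes. Samd3, a gene of NK and memory CD8 T cells, was 17.3-fold higher, at 129 CPM against 2.77 CPM. Ctla2a, which encodes a cysteine protease inhibitor, was 16.5-fold higher, at 224 CPM against 8.83 CPM. Next came the long noncoding RNA Ifngas1, at 8.95-fold. It was followed by Il18rap (7.62-fold), a chain of the interleukin-18 receptor, and by Tbx21 (6.96-fold), which encodes the transcription factor T-bet. The chemokine receptor Cxcr3 was 6.93-fold higher, the carbohydrate sulfotransferase Chst11 6.71-fold, the transcription factor Runx2 6.11-fold and Ly6c2 6.05-fold. 1700025G04Rik (5.42-fold), Cd44 (5.29-fold), Cobll1 (4.67-fold), Hopx (4.08-fold), Gm33104 (3.87-fold) and the chemokine Xcl1 (3.78-fold) completed the 15 largest. Of 4756 genes with a UMI in at least 25% of memory-like cells, 47 were at least 2-fold higher than in naive-like cells.

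**Figure D1:**
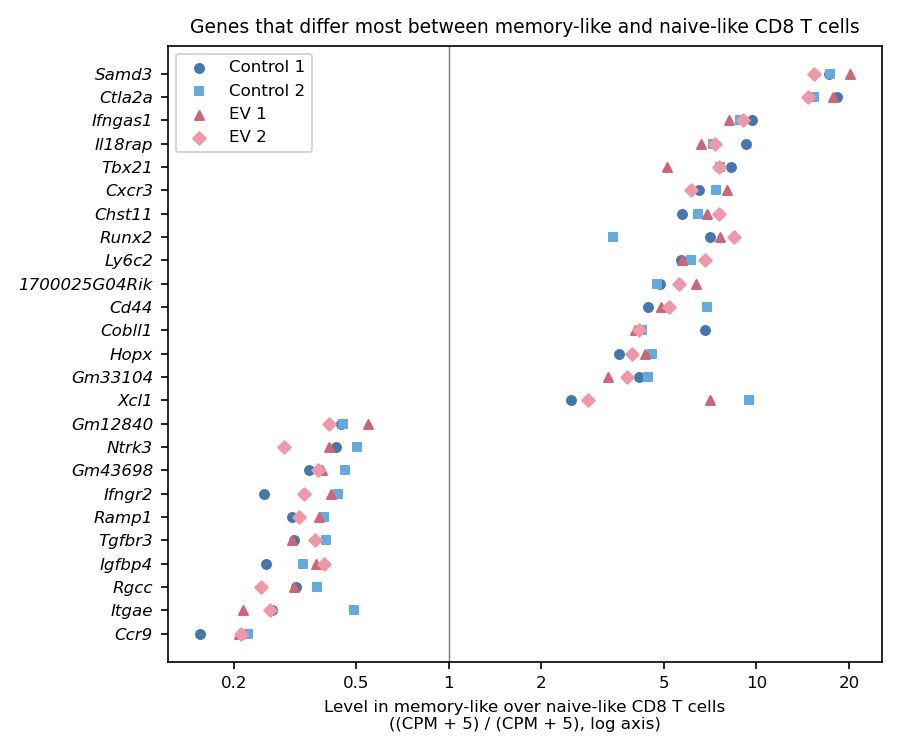
Level of the 15 genes highest and the 10 genes lowest in memory-like relative to naive-like CD8 T cells, as the ratio of CPM + 5 on a log axis, 1 point per library (circles and squares controls, triangles and diamonds EV-treated). Genes had a UMI in at least 25% of memory-like cells (highest) or of naive-like cells (lowest). Every library lies on the same side of 1 for each gene, and Samd3 and Ctla2a lie above 14.7 in all libraries.

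The lowest ratios to naive-like cells, among genes with a UMI in at least 25% of naive-like cells, were those of Ccr9 and Itgae. Ccr9, the chemokine receptor that guides T cells to the small intestine, stood at 27.8 CPM against 158 CPM in naive-like cells, a ratio of 0.20. Itgae, the alpha chain of the integrin CD103, stood at 33.9 CPM against 120 CPM (ratio 0.31). The rest of the 10 lowest were Rgcc (0.32), Igfbp4 (0.34), the TGF-beta co-receptor Tgfbr3 (0.35), Ramp1 (0.35), the interferon-gamma receptor chain Ifngr2 (0.36), Gm43698 (0.39), Ntrk3 (0.40) and Gm12840 (0.47).

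Effector genes were uneven in the memory-like cells, with some granzymes rare and other cytotoxic genes common. The transcription factor genes Lef1 and Bach2, which maintain naive and stem-like T cells, were at 0.70 and 0.69 of the naive-like level, and Tcf7 was at 0.88. Bcl2, a survival gene, was 2.17-fold higher, at 1051 CPM against 481 CPM. Transcripts of the granzymes Gzma and Gzmb were rare, in 0.752% to 4.94% and 0.352% to 3.70% of the cells. Gzmk was seen in 0.352% to 1.65% of the cells. Klrg1, a receptor of terminal effector cells, was seen in no cell of control 1 and in at most 0.412% of the cells of another library. The share of B cells with a UMI was at most 0.168% for Gzma, and at most 0.107% for Gzmb. Gzmm, another granzyme, was at 37.8 CPM against 1.87 CPM in naive-like cells. Nkg7 had a UMI in 95.1% to 98.4% of the cells, at 633 CPM against 390 CPM, and the perforin gene Prf1 in 43.6% over all libraries, at 56.8 CPM against 48.6 CPM. Of B cells, 0.347% to 0.769% had a UMI of Nkg7 and 0.486% to 1.18% one of Prf1. Ctsw, which encodes cathepsin W, was at 226 CPM against 130 CPM.

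Transcripts that mark other lymphocytes were also read in the memory-like cells. Of 12 natural killer cell marker genes, summed levels were 143, 129, 177 and 130 CPM in controls 1 and 2 and EV-treated replicates 1 and 2, with Prf1 the most abundant at 56.8 CPM and Ncam1 without a UMI in any library. In naive-like cells these sums were 47.4, 64.7, 58.2 and 63.2 CPM. Klrb1c, which encodes NK1.1, had a UMI in 1.65% to 2.70% of the memory-like cells and in at most 0.0808% of naive-like cells. Fcer1g was seen in 3.52% to 6.17% against 0.323% to 0.852%, and Tyrobp in 2.70% to 4.53% against 0.808% to 2.70%. A UMI of Trdc, Zbtb16, Klrb1c, Tyrobp or Fcer1g was held by 12.4%, 11.3%, 13.2% and 10.9% of the memory-like cells of the 4 libraries. Of 12 gamma-delta T cell genes, summed levels were 81.0, 62.1, 42.8 and 50.8 CPM, against 25.1, 32.7, 22.6 and 25.8 CPM in naive-like cells. Trdc had a UMI in 2.47% to 4.25% of memory-like and 2.18% to 3.41% of naive-like cells. Cd163l1 was the most abundant of these at 24.0 CPM, and Trdv4, Il23r and Sox13 were without a UMI. The innate-like T cell regulator Zbtb16 (PLZF) had no UMI in any memory-like cell. Over the 1052 cells of all libraries together, a count of 0 allows a share of up to 0.285% of cells with a UMI, by counting error alone, and sets no limit on cells that express the gene. Of 13 B cell genes, summed levels were 276, 337, 527 and 280 CPM, and Ighm led at 159 CPM, against 193 CPM in naive-like cells. EV-treated replicate 1 stood apart through antigen presentation genes, with Cd74 at 20.1, 75.1, 161 and 28.2 CPM and H2-Aa at 6.56, 19.0, 73.9 and 11.7 CPM in the 4 libraries. Ighm had a UMI in 73.7% to 79.2% of the memory-like cells, and Igkc in 10.5% to 28.9%, against 98.4% to 99.4% and 96.3% to 97.3% of B cells.

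Cells at the edge of the choice lay between naive-like cells and the rest for Ly6c2, Cd44, Gzmm and Cxcr3, but not for every gene. Ly6c2 averaged 387 CPM in CD8 T cells with a sum of 2 UMIs, just outside, 634 CPM in cells with a sum of 3, just inside, and 936 CPM in cells with a sum of 4 or more. Cd44 averaged 26.9, 41.8 and 99.8 CPM in these cells, and Gzmm averaged 4.74, 6.51 and 46.3 CPM. Cxcr3 averaged 25.9, 40.1 and 92.7 CPM. For the means of each of these 4 genes the cells just inside were nearer to the cells just outside than to the rest of the group. Klrk1, the receptor NKG2D, averaged 2.84 CPM at a sum of 3, below the 6.52 CPM of naive-like cells, and 39.8 CPM at 4 or more. Dapl1 averaged 540 CPM at a sum of 3, above both naive-like cells (437 CPM) and cells with 4 or more (266 CPM). Ctla4 at a sum of 3 stood at 62.8, 58.3, 34.8 and 13.7 CPM in the 4 libraries, above cells with 4 or more in all but EV-treated replicate 2. The sum of 3 was found in 50, 68, 62 and 64 cells and the sum of 2 in 133, 139, 113 and 138 cells of the 4 libraries. The group is a range on a scale of 3 transcripts and has no gap at its lower edge.

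**Figure D2:**
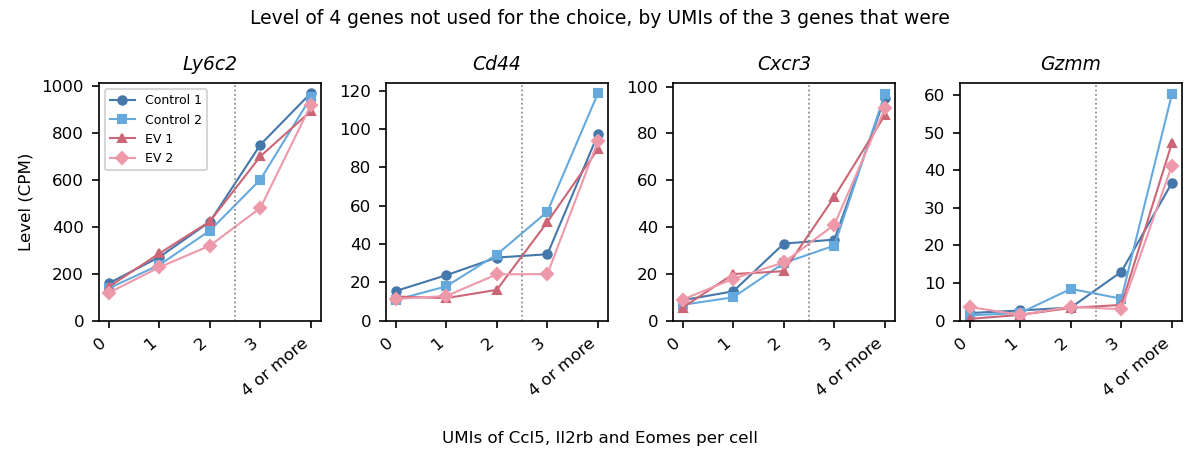
Level (CPM) of Ly6c2, Cd44, Cxcr3 and Gzmm in CD8 T cells by their UMIs of Ccl5, Il2rb and Eomes together, 1 line per library, with the dotted line at the lower edge of the memory-like group. Ly6c2 rises from bin to bin in each library, and Gzmm averages 6.51 CPM at a sum of 3 and 46.3 CPM at 4 or more.

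The first comparison asked whether EV treatment changed how many memory-like cells the nodes held. They formed 12.5% of CD8 T cells in control 1 (95% Wilson interval 11.2% to 14.0%) and 12.5% in control 2 (11.2% to 14.0%). In EV-treated replicates 1 and 2 they formed 21.7% (19.4% to 24.2%) and 19.0% (17.1% to 21.1%). The groups did not overlap. The means were 12.5% ± 0.0259 and 20.4% ± 1.90 (SD, n = 2), a difference of 7.84 percentage points and a ratio of 1.63. With 2 libraries a group, an exact two-sided permutation test gives 0.333 at the lowest, which was the p here. The intervals cover counting error only.

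The same cells as a share of all filtered cells did not separate the groups. They formed 3.18% (2.82% to 3.59%) and 3.37% (2.99% to 3.79%) of the cells in controls. In EV-treated mice they formed 2.98% (2.63% to 3.37%) and 3.33% (2.97% to 3.73%). The means were 3.28% ± 0.134 and 3.15% ± 0.250 (SD, n = 2), the EV-treated value lay inside the control range in 1 replicate, and the exact permutation p was 0.667. The denominator differed. CD8 T cells were 25.4% and 26.9% of all cells in controls and 13.7% and 17.5% in EV-treated mice. Naive-like CD8 T cells were 15.2% and 14.9% of all cells in controls and 5.98% and 7.82% in EV-treated mice, a ratio of 0.459 (exact permutation p = 0.333, the smallest possible). A deeper cell more readily shows a UMI of the 3 genes and leaves the naive-like class, and CD8 T cells were deeper in EV-treated mice, as given below. The class also leaves out cells at or over the limit on Ifit1, Ifit3 and Rsad2. Such cells were a larger share of CD8 T cells in EV-treated mice, as given below. When every cell was thinned to 2000 UMIs, an alternative chosen after seeing the data, the naive-like share was 19.6% and 21.0% in controls and 10.1% and 12.8% in EV-treated mice, a ratio of 0.564. B cells numbered 2878 and 2406 in controls and 4672 and 4163 in EV-treated mice. Shares of one suspension sum to a whole, so a loss of naive-like cells and a gain of other cells cannot be told apart.

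**Figure D3:**
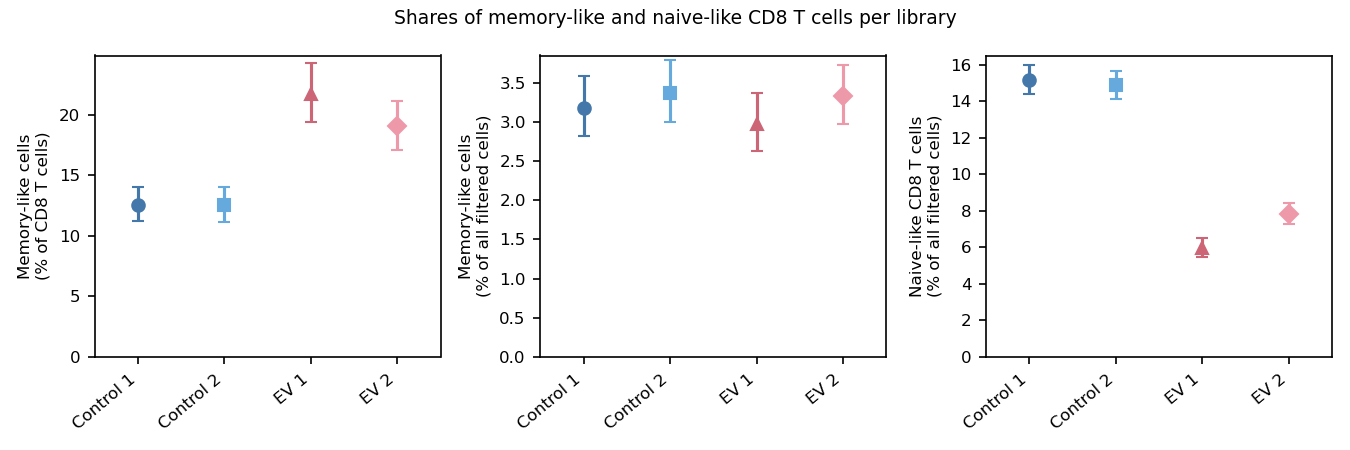
Share of memory-like cells among CD8 T cells, of memory-like cells among all filtered cells, and of naive-like CD8 T cells among all filtered cells, in percent, 1 point per library with its 95% Wilson interval. The share of CD8 T cells is 12.5% in both controls and 21.7% and 19.0% in EV-treated mice, whereas the share of all cells overlaps.

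Depth and the position of the edge moved this share. CD8 T cells held a median of 7194 and 8444 UMIs in controls and 9742 and 8984 in EV-treated mice, and a cell with more UMIs reaches a sum of 3 more readily. When every cell was thinned to 2000 UMIs, the share was 4.94% and 3.63% in controls and 6.33% and 5.09% in EV-treated mice, a difference of 1.43 percentage points and a ratio of 1.33, against 1.63 at full depth. Thinning left out 156, 261, 217 and 158 shallower cells of the 4 libraries, none of them memory-like. With a sum of at least 10 at full depth, the share was 5.86% and 5.46% in controls and 9.65% and 7.17% in EV-treated mice, a ratio of 1.49. The groups did not overlap in either setting. Of B cells, which should lack the 3 transcripts, 0.313% to 0.748% reached a sum of 3. CD4 T cells reached it in 4.29%, 3.53%, 5.21% and 5.10% of cells.

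The second comparison asked which genes differed between EV-treated and control memory-like cells. UMIs were summed over the cells of a library and tested with edgeR's quasi-likelihood test, with Benjamini-Hochberg adjustment over all genes tested. At an adjusted p under 0.05, 21 of 10065 genes were called (0.209%), 12 of them higher (0.119%) and 9 lower (0.0894%) in EV-treated mice. At an unadjusted p under 0.05 there were 1088. Both EV-treated libraries lay above both controls for 20.2% of the genes and below both for 21.0%. None of the genes used for the choice was among the 21. Of the 21, 15 were also called in naive-like cells, where 139 of 11168 genes were called, and 18 of the 19 tested in both had the same sign. Memory-like and naive-like cells share libraries, so this overlap is no second measurement. Levels below are CPM scaled with the fit's library factors, and folds are log2 of EV-treated over control with the standard error (SE).

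Molecular chaperones and their co-factors formed the largest group among the called genes. Heat shock proteins bind unfolded proteins and are induced when protein folding is disturbed. Of 18 tested genes on the heat shock and chaperone list, 8 were called higher and none lower, and all 18 had a fold above 0, with a median of 0.67 against 0.00 over all genes. Both EV-treated libraries lay above both controls for 17 of the 18, against 20.2% of all genes tested. In naive-like cells the median of the list was 0.62. The list was chosen with earlier results of these data known, so its count is no independent evidence. The calls depended on which cells were kept. With cells of any size kept and a mitochondrial limit of 5%, 2 of the 8 were still called, Hsph1 and Stip1, although all 18 folds stayed above 0 with a median of 0.67. After thinning to 2000 UMIs 4 of the 8 were called (Dnaja1, Hsp90aa1, Hspa8 and Hsph1) and 17 of the 18 folds were above 0. Without cells that held a marker UMI of other types none of the 8 was called, with a median of 0.54, in the few cells left. The mitochondrial share of UMIs moved with treatment too. It averaged 3.30% and 3.22% in the memory-like cells of controls and 3.40% and 3.72% in those of EV-treated mice, and likewise did not overlap in naive-like, CD4 T and B cells. Its part in the chaperone levels was not tested.

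Hspa8 (chr9:40800984-40810087), the constitutive HSP70 chaperone, stood at 776 and 759 CPM in controls and at 1282 and 1353 CPM in EV-treated cells. Its rise was 0.78 ± 0.11 (SE; edgeR adjusted p = 0.0115). Hsp90aa1, the inducible HSP90 chaperone, stood at 188 and 188 CPM against 327 and 324 CPM (0.79 ± 0.10, adjusted p = 0.00605). For both genes the gap between the groups was larger than the spread within either. Dnaja1 (chr4:40722150-40737149), an HSP40 co-chaperone that delivers substrates to HSP70, stood at 234 and 234 CPM against 404 and 419 CPM. It had a UMI in 84.2% and 89.1% of the control cells and in 97.5% and 98.9% of the EV-treated cells. EV-treated cells were deeper, which raises shares of cells with a UMI, here and for the genes below. The 3 highest cells of a library held 3.90% to 4.72% of the Dnaja1 UMIs, so its rise of 0.82 ± 0.10 did not rest on a few cells.

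Hsph1 (chr5:149614287-149636376), the HSP110 exchange factor of HSP70, had the largest fold of the 18 tested genes of the list, from 23.1 and 32.7 CPM to 71.0 and 73.6 CPM (1.36 ± 0.16, edgeR adjusted p = 0.00605). Stip1 (chr19:7020702-7039967), which joins HSP70 to HSP90, stood at 46.9 and 47.0 CPM in controls and at 96.0 and 103 CPM in EV-treated cells (1.08 ± 0.12, adjusted p = 0.00568). A UMI of Stip1 was found in 36.3% and 37.2% of control cells and in 69.5% and 68.0% of EV-treated cells. The HSP90 co-chaperones Fkbp4 (0.81), Chordc1 (0.77) and Cacybp (0.70) were called as well, less firmly. Fkbp4 and Cacybp lost the call with a sum of at least 4 (edgeR adjusted p = 0.0693 and 0.0730). Thinned to 2000 UMIs, the folds of Fkbp4, Chordc1 and Cacybp were 0.45, 0.59 and 0.25 (adjusted p = 0.686, 0.398 and 0.835). The stress-inducible HSP70 genes Hspa1a and Hspa1b did not pass the filter on low counts, with 0, 4, 5 and 8 UMIs and with 4, 6, 6 and 45 UMIs in controls 1 and 2 and EV-treated replicates 1 and 2. Among members that were not called, Hsp90ab1 had 0.50 ± 0.11 (adjusted p = 0.0836), Hspd1 of the mitochondrial chaperonin 0.54 ± 0.11 (adjusted p = 0.0774), and Hspa5 of the endoplasmic reticulum 0.36 ± 0.10 (adjusted p = 0.226).

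The start regions of these genes are shown because heat shock factor binds repeats of GAA and TTC. The windows are RefSeq's on GRCm38.p6, from 250 bases before to 50 after a start site, 5′ to 3′ along the gene. The two-unit element searched was GAANNTTC, which reads the same on both strands. The three-unit element was this sequence followed after 2 bases by another GAA, or its reverse complement. It stood in 0.603% of 32851 windows and the two-unit element in 7.86%. By gene, these were 0.662% and 9.04% of 27025 genes. Of the 8 called chaperone genes 6 had a window in the table, all but Hspa8 and Hsp90aa1. The three-unit element was in 2 of the 6, Hsph1 and Chordc1, and the two-unit element was in 4. Over the whole list the three-unit element was in 5 of 16 genes. Capitals mark the three-unit element in Hsph1 and Chordc1, where 3 overlapping copies run together in Chordc1, and the two-unit element in Dnaja1.
Hsph1, chr5:149636287-149636586, minus strand: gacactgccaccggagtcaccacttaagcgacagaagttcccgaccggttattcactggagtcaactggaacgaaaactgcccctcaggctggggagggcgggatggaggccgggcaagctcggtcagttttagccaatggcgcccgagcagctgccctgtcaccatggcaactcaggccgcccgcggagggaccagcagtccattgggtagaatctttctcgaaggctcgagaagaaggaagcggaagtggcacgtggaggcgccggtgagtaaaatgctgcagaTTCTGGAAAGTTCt
Chordc1, chr9:18292017-18292316, plus strand: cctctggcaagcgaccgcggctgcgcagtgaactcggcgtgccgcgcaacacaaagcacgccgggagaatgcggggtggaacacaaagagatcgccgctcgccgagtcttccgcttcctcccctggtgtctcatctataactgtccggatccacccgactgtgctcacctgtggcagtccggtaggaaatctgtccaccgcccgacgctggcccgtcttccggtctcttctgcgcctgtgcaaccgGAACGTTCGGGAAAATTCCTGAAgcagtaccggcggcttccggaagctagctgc
Dnaja1, chr4:40722218-40722517, plus strand: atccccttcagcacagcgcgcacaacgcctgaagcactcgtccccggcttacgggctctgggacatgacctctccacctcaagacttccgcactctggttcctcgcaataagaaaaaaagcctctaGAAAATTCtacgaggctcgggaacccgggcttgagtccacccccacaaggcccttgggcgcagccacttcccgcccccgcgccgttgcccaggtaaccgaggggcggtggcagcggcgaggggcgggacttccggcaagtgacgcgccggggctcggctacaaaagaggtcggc
The Hsph1 and Chordc1 elements lie near the start site. The Dnaja1 element lies upstream of it, in 1 of the 3 windows of this gene. Stip1 and Cacybp, which were also called, had neither element in their windows, and a match here describes letters and no bound site.

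The other called rises were Tspan9, Igkc, Art2b and Dynll1. Tspan9 (chr6:127961396-128143594), a membrane tetraspanin, stood at 10.0 and 14.7 CPM in controls and at 31.9 and 40.4 CPM in EV-treated cells, the highest fold of all called rises (1.54 ± 0.22, edgeR adjusted p = 0.0136). It was found in 8.88% and 11.7% of control cells and in 25.9% and 24.6% of EV-treated cells. Its rise in naive-like cells was 0.59. Art2b, an ADP-ribosyltransferase on the surface of T cells, rose by 0.96 ± 0.17 (adjusted p = 0.0471), and Dynll1, a dynein light chain, by 0.81. The Art2b call was the least stable of these, with adjusted p of 0.1997 in DESeq2, 0.0749 and 0.0730 with a sum of at least 2 and 4, and 0.0669 after Scrublet removal. It was also lost with the replicate block and with other library sizes. Igkc and Dynll1 lost the call with a sum of at least 4. Tspan9, Igkc, Art2b and Dynll1 all lost it after thinning to 2000 UMIs, and with no upper limits and a mitochondrial limit of 5%.

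Igkc, the kappa immunoglobulin chain, rose from 12.7 and 10.7 CPM to 27.6 and 28.8 CPM (1.28 ± 0.21, edgeR adjusted p = 0.0217). CD8 T cells do not make this chain. In naive-like cells it moved by nearly the same amount, from 12.2 and 12.7 CPM to 27.9 and 25.5 CPM. The number of B cells moved in the same direction, as given above, and its part in the result was not tested. Of 10 tested B cell genes Igkc alone was called.

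Among the falls, Cirbp was spread over many cells. Cirbp (chr10:80165985-80172786), an RNA-binding protein induced by cold, stood at 88.8 and 70.7 CPM in controls and at 44.1 and 32.7 CPM in EV-treated cells (-1.06 ± 0.17, edgeR adjusted p = 0.0217). It was found in 55.2% and 53.8% of control cells and in 39.1% and 31.0% of EV-treated cells. Its call was lost with a sum of at least 4, and with no upper limits and a mitochondrial limit of 5%. Rbm3, the other gene of the cold-inducible list, stood at 536 and 532 CPM against 413 and 331 CPM and was not called (-0.52 ± 0.12, adjusted p = 0.0982). In naive-like cells the median of the pair was -0.89. Ccdc82 fell by 0.79 (adjusted p = 0.0471), a call that was lost with DESeq2 (0.364), with a sum of at least 2 (0.0558) or 4 (0.0744) and with the replicate block (0.0507). The mitochondrially encoded mt-Nd4l fell by 0.75. The other 12 tested mitochondrial genes were not called, and the median of the list was 0.09.

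Ctla4 (chr1:60887000-60915832), the inhibitory receptor that competes with CD28, stood at 41.2 and 45.0 CPM in controls and at 21.0 and 20.8 CPM in EV-treated cells. The fall was -1.04 ± 0.16 (SE; edgeR adjusted p = 0.0190). It rested on 37 and 43 cells in controls and 25 and 28 cells in EV-treated mice, and the 3 highest cells of a library held 31.4% to 46.9% of its UMIs. The call was lost with DESeq2 (adjusted p = 0.186) and with a sum of at least 2 (-0.65, adjusted p = 0.0761) or 4 (-0.99, adjusted p = 0.0947). In naive-like cells Ctla4 stood at 25.3, 18.8, 24.9 and 23.5 CPM. Of 7 tested inhibitory receptor genes Ctla4 alone was called, and Pdcd1 was seen in at most 2.06% of the cells of any library. Ctla4 was also on the list of CD4 T cell markers, of which no other tested member was called. All 5 tested members of that list had a fold below 0, with a median of -1.04, and the summed level of its 6 genes was 72.2 and 86.1 CPM in controls and 40.9 and 39.1 CPM in EV-treated cells. Ctla4 was the most abundant of them, Foxp3 stood at 1.90 to 6.68 CPM, and the part of the list in the Ctla4 result was not tested.

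Several falls rested on a handful of cells. Hist1h1b (chr13:21779883-21780625), a histone made in S phase, had the largest fold, at 41.5 and 39.0 CPM in controls and 0 and 0.891 CPM in EV-treated cells (edgeR adjusted p = 2.50e-05). Its UMIs numbered 108 and 117 in controls, of which 96 and 108 lay in a single cell of each library. Only 4 and 3 control cells had any. In EV-treated mice it had 0 and 3 UMIs. No interval is given for the ratio, since the UMIs of 1 cell are not independent counts. A single cell in each control library thus held most of the control UMIs, and its part in the call was not tested.

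Pclaf, a DNA replication factor, had 43 and 37 UMIs in 4 and 4 control cells and 9 and 6 in 2 and 3 EV-treated cells. Hist1h2ae had 38 and 26 UMIs in controls and 4 and 5 in EV-treated mice. Nrp1 (chr8:128358604-128503363), the semaphorin co-receptor neuropilin 1, had 53 and 44 UMIs in 8 and 12 control cells and 9 and 7 in 6 and 3 EV-treated cells. A single cell held 34 of the 53 and another 19 of the 44. Hist1h4d was broader, in 40.9% and 34.6% of control cells and 22.2% and 8.80% of EV-treated cells, and fell by 2.10 on the log2 scale. Its fold was -2.96 without EV-treated replicate 1 and -1.52 without EV-treated replicate 2, and DESeq2 (adjusted p = 0.440) and both other edges (0.0513 and 0.0608) did not call it. Of 18 tested proliferation genes 2 were called, both lower, and 25 tested histone genes held 3 of the falls.

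These calls were also lost under other limits on cells, though not all of their folds shrank. When cells of any size were kept and the mitochondrial limit was set to 5%, Hist1h1b had 273, 129, 227 and 100 UMIs in controls 1 and 2 and EV-treated replicates 1 and 2. In EV-treated mice nearly all of these UMIs thus came from barcodes above the upper limits. Whether these barcodes were single cells was not tested. The fold was then -0.55 (adjusted p = 0.709), and Pclaf turned to 0.30 (adjusted p = 0.844). Nrp1 kept a fold of -2.58 (adjusted p = 0.0542) and Hist1h4d one of -1.54 (adjusted p = 0.404). Only Hsph1 and Stip1 were called in that setting. Of the genes that were not called, Top2a (-1.59, adjusted p = 0.0520), Maf (-2.62, adjusted p = 0.0520), Gm11342, Hist1h2ap and Zc3h6 had the smallest p among the falls.

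**Figure D4:**
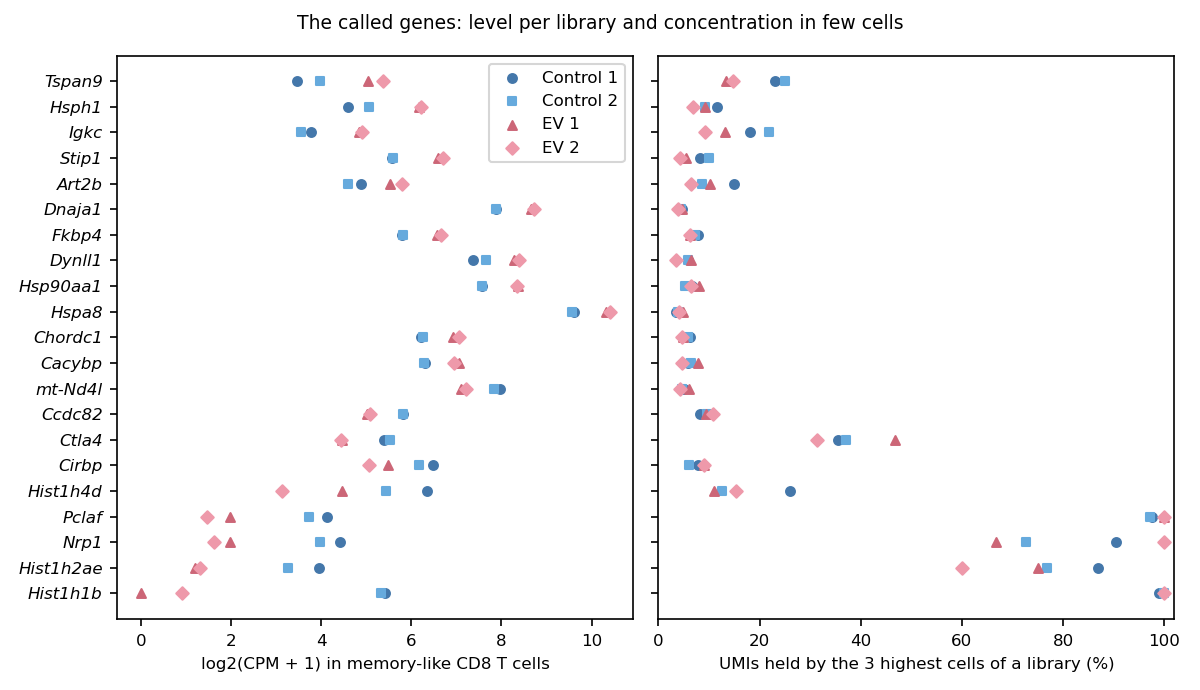
The 21 called genes in memory-like cells, with the level in each library as log2(CPM + 1) on the left and the share of a gene's UMIs held by the 3 highest cells of a library, in percent, on the right. Chaperone genes lie below 15% on the right, whereas Hist1h1b lies at 99.1% and 100% in the controls.

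Gene groups tied to memory and cytotoxic function held no called gene. Of 25 tested CD8 memory genes none was called, with a median fold of -0.06. Ly6c2 had -0.08 ± 0.11 (edgeR adjusted p = 0.855), Cd44 -0.23 ± 0.13 (adjusted p = 0.557) and Cxcr3 -0.03 ± 0.12 (adjusted p = 0.947). Of 15 tested CD8 naive genes none was called, 13 had a fold above 0 and the median was 0.13. Of 15 tested cytotoxic effector genes none was called, and the median was 0.07. Tnf, the cytokine, stood at 16.5 and 16.0 CPM against 5.92 and 6.53 CPM and missed the threshold (-1.38 ± 0.28, adjusted p = 0.0713). Nkg7, a cytotoxic granule protein, had 0.28 ± 0.11 (adjusted p = 0.368).

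The interleukin-2 and interleukin-15 pathway, which maintains memory CD8 T cells through Il2rb, held no called gene among 18 tested. Its median fold was 0.17, and the libraries did not overlap for 10 genes in the higher and 3 in the lower direction, against 20.2% and 21.0% of all genes tested. Socs1, a feedback inhibitor of cytokine receptors, stood at 38.1 and 34.0 CPM against 82.8 and 56.7 CPM (0.95 ± 0.18, edgeR adjusted p = 0.0580). Bcl2 stood at 858 and 1003 CPM against 1029 and 1330 CPM (0.34 ± 0.14, adjusted p = 0.399). Socs3, another such inhibitor, was at 63.1 CPM in EV-treated replicate 1 and at 13.1 CPM in EV-treated replicate 2, with 11.2 and 10.3 CPM in controls. The receptor chain Il2rg had -0.14 ± 0.11 and Stat5b -0.10 ± 0.11.

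Other lists were also without a called gene. These were 19 T cell receptor and proximal signalling genes (median 0.06), 19 fate transcription factors (0.09), 21 homing and adhesion genes (0.03) and 20 immediate early genes (-0.22, with 4 above 0). Of 37 interferon-stimulated genes outside the rule 30 had a fold above 0, the median was 0.15, and none was called. Cells at or over the limit on Ifit1, Ifit3 and Rsad2 had been left out, and these were 2.37% and 5.08% of CD8 T cells in controls and 6.97% and 8.17% in EV-treated mice, so the list was read in cells selected against this response. Among homing genes the egress receptor S1pr1 had -0.52 ± 0.11 (edgeR adjusted p = 0.0826) and Ccr7 had 0.34 ± 0.11 (adjusted p = 0.283). Of 79 ribosomal protein genes none was called, with a median of 0.06. The marker lists of NK cells (8 tested), gamma-delta T cells (6), innate-like T cells (3) and myeloid cells (5) held no called gene.

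Cdk8 (chr5:146231230-146302874), the kinase of the Mediator complex, was measured together with its paralog Cdk19. Cdk8 stood at 661 and 425 CPM in controls and at 276 and 97.4 CPM in EV-treated cells. The groups did not overlap, but the test did not call it (-1.54 ± 0.33, edgeR adjusted p = 0.0836). The fold was negative in all 17 alternatives, but the call was not settled, with adjusted p from 4.02e-35 with no filter to 0.9999 in DESeq2. Without EV-treated replicate 2, the fold was -0.97, and over the single libraries left out it reached -2.47. Cdk8 had a UMI in 64.1% of the cells of EV-treated replicate 2 and in 95.1% to 100% of the cells of the other libraries. With the same cells thinned to 2000 UMIs, the shares were 73.7% and 53.0% in controls 1 and 2 and 43.2% and 16.9% in EV-treated replicates 1 and 2. Thinned naive-like cells had 75.3%, 56.4%, 37.8% and 14.7%, and thinned B cells 73.5%, 54.0%, 38.1% and 15.5%. The rRNA-like Gm42418, given above, and Cmss1 were also lowest in EV-treated replicate 2, Cmss1 with 2832, 2216, 1222 and 153 CPM. Their part in the Cdk8 values was not tested. Cdk19 averaged 105 CPM in controls and 95.2 CPM in EV-treated cells (-0.14 ± 0.12, adjusted p = 0.714), and no gene of the Mediator kinase module was called among 7 tested.

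The third comparison asked where the EV effect in memory-like cells differed from that in naive-like CD8 T cells of the same libraries. In a model with library as a block, 21 of 10761 genes were called (0.195%), 19 with the higher effect in memory-like cells. At an unadjusted p under 0.05 there were 724. The folds given for each cell group come from separate fits without the filter on low counts, so they do not subtract exactly to the difference. Ctla4 differed the most, with -1.02 in memory-like and 0.13 in naive-like cells (difference -1.18 ± 0.22, edgeR adjusted p = 0.0165). Auts2, a chromatin regulator, stood at 62.7 and 85.7 CPM against 136 and 119 CPM in memory-like cells and at 190 and 169 against 190 and 184 CPM in naive-like cells (difference 0.71 ± 0.13, adjusted p = 0.0103). Dapl1, a gene of naive and stem-like T cells, had 0.22 in memory-like and -0.19 in naive-like cells (difference 0.40 ± 0.07, adjusted p = 0.00798). Satb1, a chromatin organiser, had 0.40 and 0.11 (difference 0.27 ± 0.05, adjusted p = 0.00666). None of Auts2, Dapl1 and Satb1 was called within memory-like cells alone.

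Of the 21 genes 15 encoded ribosomal proteins, with small differences. Rps4x had 0.23 in memory-like and 0.09 in naive-like cells (difference 0.12 ± 0.02, edgeR adjusted p = 0.0272), and Rps24, Rps16 and Rpl13a differed by 0.09, 0.11 and 0.12. The share of UMIs in ribosomal protein genes was 31.0%, 31.0%, 32.3% and 29.6% in memory-like and 30.9%, 30.8%, 30.7% and 28.3% in naive-like cells of the 4 libraries. Malat1 had -0.36 against -0.24 and Gm42418 -1.40 against -1.58. No chaperone gene was among the 21, so no difference between memory-like and naive-like cells was detected for them at this depth. Without the library block, or after thinning to 2000 UMIs, 0 genes were called.

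**Figure D5:**
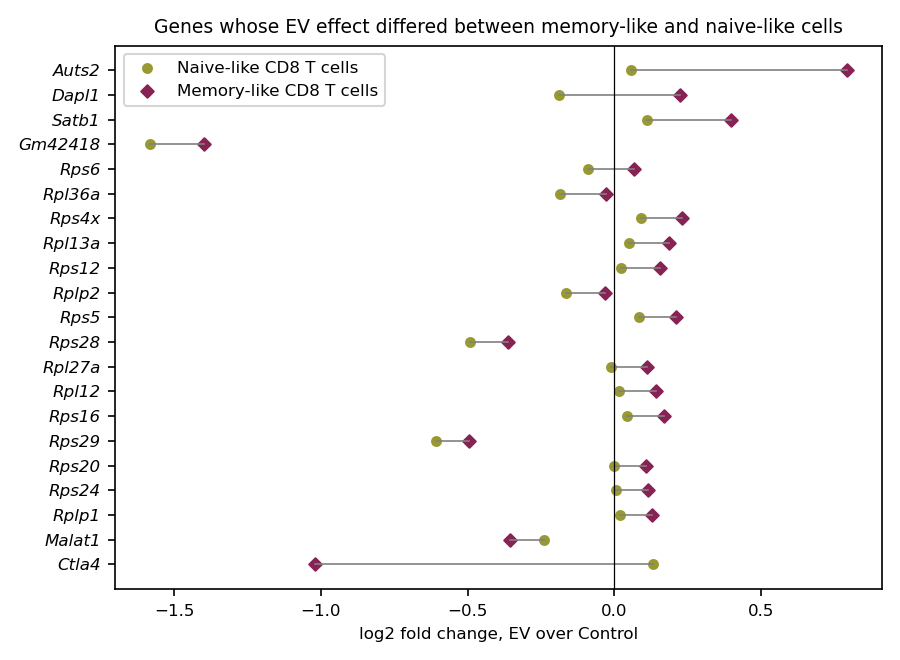
The 21 genes whose EV effect differed between memory-like (diamonds) and naive-like (circles) CD8 T cells, as log2 fold change of EV-treated over control, joined by a line. Ctla4 has the widest gap, from 0.13 to -1.02, and most of the others are ribosomal protein genes with narrow gaps.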

How the data were processed

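The authors ran Cell Ranger 7.1.0 on 4 droplet 3′ single-cell libraries, with mm10 as the genome, and deposited unnormalized UMI counts per gene and barcode. These counts held 8361, 8297, 8665 and 9000 barcodes per library before the limits used here. The annotation release is not given in the sources used here. Cells with 200 to 5000 genes, at most 20000 UMIs and under 10% mitochondrial UMIs were kept, 8141, 7891, 8164 and 8529 per library. Doublets stayed in. Scrublet marked 306, 236, 129 and 275 cells, and 0, 3, 0 and 0 memory-like cells. The members, gene lists and tests were chosen with earlier results of these data known.

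Counts were summed per library and cell group and fitted with edgeR 4.0.16 (R 4.3.3; filterByExpr, TMM, quasi-likelihood test, two-sided, Benjamini-Hochberg adjusted p under 0.05), 2 EV-treated against 2 control libraries. The difference between cell groups was an interaction with library as a block. Shares were compared with exact permutation tests. Named genes were the genes of the choice, the 10 largest called rises and falls with non-overlapping libraries (in a direction with fewer, 5 of the smallest p), called list members, the 3 most abundant genes of a list, Cdk8 and Cdk19, the 15 highest and 10 lowest against naive-like cells, and 10 called differences. Others were named after their values were seen. Alternatives were DESeq2 1.42.0, no filter, other library sizes, blocks, thinning, other edges, cell limits, Scrublet removal and each library left out. The fits were tested on simulated data. Gene coordinates came from GENCODE M21. One gene's result is not reported here.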

Additional observations from a re-analysis of the deposited data

Results flagged for a closer look

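The EV effect differed between memory-like and naive-like CD8 T cells, by the test of the difference itself, for 21 genes, and the 10 of the smallest p are given here. The difference of log2 fold changes, memory-like minus naive-like, was 0.19 for Gm42418, -0.14 for Malat1, 0.27 for Satb1, 0.40 for Dapl1, 0.71 for Auts2 and -1.18 for Ctla4. It was 0.12 for Rps4x, 0.094 for Rps24, 0.11 for Rps16 and 0.12 for Rpl13a. For Ctla4 it lay between -1.48 and -0.90 over 8 alternatives, with adjusted p from 8.58e-05 to 1. For Auts2 it lay between 0.44 and 1.05. The direction of these 10 differences was the same under every alternative run, none of which moved the edge of the choice.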

How the results depend on the processing

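With 2 libraries a group, the limits of these results are the number of libraries and, for rare transcripts, of cells. The difference in the share of CD8 T cells was 11.0 percentage points with a sum of at least 2, 5.74 with at least 4, 3.98 with at least 6, 2.75 with at least 10, 1.43 after thinning to 2000 UMIs and 3.73 after thinning to 4000 UMIs. As ratios of EV-treated to control shares these were 1.58, 1.59, 1.53, 1.49, 1.33 and 1.53, against 1.63. The sums of 6 and 10 and the thinning to 4000 UMIs were chosen after seeing the data. Leaving out each library gave 6.49 to 9.19. For the share of all cells this range was -0.300 to 0.0536. The cause of each change below was not tested.

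Of 21 called genes (12 higher, 9 lower), the count was 284 (117 and 167) with no filter on low counts, 12 (7 and 5) with a sum of at least 4, 2 (2 and 0) with no upper limits and a mitochondrial limit of 5%, and 31 with DESeq2 (21 higher). After thinning to 2000 UMIs the count was 23 (9 and 14), and 10 of the 18 called genes with a value were lost, among them Tspan9, Igkc, Stip1 and Ctla4, whose folds there were 1.19, 1.59, 0.89 and -1.27, Fkbp4 (0.45) and Cacybp (0.25). Without cells holding a marker UMI of other types, immunoglobulins included, which took out 81.9% to 88.4% of the cells of a library, 6 genes were called (1 and 5), none of the 21. Without innate lymphocyte markers only, an alternative added later, there were 57 (24 and 33), all 21 included. Leaving out each library gave 92 to 277 genes (34 to 131 higher, 33 to 146 lower), with all 21 kept each time, where the lone library of a group is assumed to vary like the others. Pclaf reversed to 0.30 with no upper limits and a mitochondrial limit of 5%, set together. The differences between cell groups numbered 69 with no filter, 0 after thinning, 0 without the library block and 18 to 117 with each library left out.

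With replicate number as a block, 34 genes were called (16 and 18), 19 of the 21 among them. Deviations of same-numbered libraries correlated at -0.105 over genes, which with 2 libraries a group cannot show whether numbers pair, and the sources used here tie no number to a shared animal or batch. Crossed pairing, added later, called 97 (42 and 55).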

Other observations

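T cell receptor beta chains were read as a description of how mixed the memory-like cells were. Exactly 1 Trbv gene had a UMI in 77, 72, 70 and 51 memory-like cells of controls 1 and 2 and EV-treated replicates 1 and 2. Between 18 and 20 different Trbv genes were seen per library. The most frequent was Trbv12-2, in 14.3%, 16.7%, 21.4% and 11.8% of these cells, against 11.2%, 12.2%, 5.10% and 11.3% of naive-like cells with 1 Trbv gene. Reads of near-identical Trbv genes can be split by the counting, so single genes are uncertain.

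NK cells, 95 in number, were defined by a UMI of Ncr1 and none of Cd3d, Cd3e, Cd3g or Cd79a. In them Ccl5, Il2rb and Eomes stood higher than in memory-like cells, Ccl5 at 5429 to 10162 CPM and Il2rb at 662 to 827 CPM. CD4 T cells held Il2rb at 29.1 to 38.6 CPM and Eomes at 0.567 to 6.16 CPM.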
